A study of Rattus norvegicus and Mus musculus with 12 samples.

Results

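Prostaglandins are lipid signals made from arachidonic acid. A phospholipase A2 first frees arachidonic acid from membrane lipids, a cyclooxygenase turns it into prostaglandin H2, and terminal synthases convert prostaglandin H2 into prostaglandin E2 or prostacyclin. Prostaglandin E2 then acts on neighbouring cells through the EP receptors. In cartilage, prostaglandin E2 is a known product of chondrocytes exposed to inflammatory cytokines and is linked to the pain of osteoarthritis.

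The genes described here are 10 members of this pathway: the cytosolic phospholipase Pla2g4a, the cyclooxygenases Ptgs1 and Ptgs2, the prostaglandin E synthases Ptges, Ptges2 and Ptges3, the prostacyclin synthase Ptgis, and the EP receptor genes Ptger2, Ptger3 and Ptger4. They were picked by gene symbol. Of the 10, 9 were among the 19687 genes of the rat table and all 10 among the 28603 genes of the mouse table. Rat Ptgis was not analysed here.

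RNA was measured by RNA-seq in primary articular chondrocytes from newborn animals, 24 h old, at passage 1. There were 4 groups of 3 libraries: untreated SD rat cells (RC), SD rat cells given IL-1β at 20 ng/ml over 24 h (RM), untreated mouse cells (MC), and mouse cells given the same treatment (MM). The mouse strain is C57BL/6 by the methods, whereas the strain labels of the MC libraries read C57BL/6, C57BL/7 and C57BL/8 and those of the MM libraries C57BL/7, C57BL/8 and C57BL/9. IL-1β serves in this design as a culture model of the inflamed osteoarthritic joint, and the groups are described as independent samples with no account of how many animals each came from. The comparisons ask how each member responded to IL-1β in each species and whether the response differed between the species.

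Total counts were between 20169272 and 25903459 in the rat libraries and between 16841580 and 20048322 in the mouse libraries. All 10 chondrocyte marker genes examined had a mean FPKM of at least 1 in both control groups, and all 10 were lower in the model group of both species. Their summed FPKM was between 5134 and 5799 in RC and between 2040 and 2076 in RM, and between 2334 and 2385 in MC and between 215 and 228 in MM. The summed FPKM of genes that mark macrophages and leukocytes was 20.5 to 24.9 in RC and 32.3 to 37.2 in RM. In mouse it was 7.45 to 8.30 in MC and 34.5 to 37.1 in MM. In rat, 2 of the 6 such genes tested rose, Cd68 and Cd14, with Cd14 from 12.4 to 22.7 FPKM. Another 2 fell, Csf1r at -1.20 and Lyz2 at -0.87 on the log2 scale. In mouse all 4 tested rose, with Cd14 from 1.87 to 24.1 FPKM. Over all genes tested, 18.3% rose and 16.8% fell in rat, and 37.4% rose and 37.7% fell in mouse. The defining leukocyte gene Ptprc was at 20 counts in RC and 16 in RM, and at 3 counts in MC and 1 in MM, and mouse Itgam was at 0. Genes that mark fibroblasts had a summed FPKM of 1791 to 1905 in RC and 1757 to 1791.5 in RM, and of 434 to 442 in MC and 1105 to 1118 in MM. In rat 2 of the 6 rose and 1 fell, and in mouse 4 rose and 2 fell. The mouse rises of Pdgfra and Col3a1 were small, at 0.26 and 0.16 on the log2 scale of the scaled counts. They did not show in FPKM, where the means went from 26.4 to 26.0 and from 339 to 313. Dcn had a mean FPKM of 5.91 in RC, 28.9 in RM, 22.9 in MC and 601 in MM, and Lum of 138, 565, 33.3 and 167 in the same order, whereas Thy1 and Dpt fell in mouse. The part of these cells in the results below was not tested. In bulk RNA, more cells of a type and more RNA per cell cannot be told apart.

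Levels below are FPKM, fragments per kilobase of gene scaled to library size, which allow genes of one table to be compared per length. The rat and mouse tables were normalised separately, so a level in rat set beside a level in mouse is only a description. Changes are log2 fold changes of model over control from edgeR's quasi-likelihood test, which itself gives no standard error. Each standard error (SE) printed with them was worked back from the change and its test statistic. The intervals of the changes and of the species differences were built from this SE. For large changes the SE can be smaller than counting error alone, as for mouse Ptgs2 and Ptger3. Such an SE and its interval overstate the precision. A gene was called changed at an adjusted P under 0.05 over all genes tested in the species.

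At this threshold 35.1% of the rat genes tested were called, 18.3% higher in RM and 16.8% lower. Of the 8 rat members with enough counts to be tested, 5 rose, namely Ptgs2, Ptges, Pla2g4a, Ptges3 and Ptger4. Ptgs1 fell, while Ptges2 and Ptger2 were not called. In mouse 75% of all genes tested were called, 37.4% higher in MM and 37.7% lower. All 10 mouse members were tested, of which 9 rose and Ptgis fell, and of the 9 Ptges3 lost its call with scaling to library size alone. Of the 8 members tested in both species, 5 rose in both, where 9.28% of the 10912 shared genes tested did, and Ptgs1 was called in opposite directions, as 12.5% were. The median log2 fold change was 0.59 over the 8 rat members and 2.52 over the 10 mouse members, against 0.01 and -0.02 over all genes tested. Rat Ptger4 and mouse Ptger2 and Ptger3 reached the test mainly through their model libraries, so their share in these counts is no support for a direction. The counts of calls rested on single libraries in rat: without RC replicate 2 or RM replicate 1 the number of members that rose was 3, since Ptges3 and Ptger4 were no longer called.

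The upstream sequences of the genes with the largest changes, and of Ptgs1, whose direction differed between the species, are shown first. Each is the 250 bases before the annotated start in rat, from RefSeq, build GRCr8. This is not the build named for the counts, and capitals mark the matches to the motifs searched.

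Ptgs2 (chr13:64713813-64714062, plus strand): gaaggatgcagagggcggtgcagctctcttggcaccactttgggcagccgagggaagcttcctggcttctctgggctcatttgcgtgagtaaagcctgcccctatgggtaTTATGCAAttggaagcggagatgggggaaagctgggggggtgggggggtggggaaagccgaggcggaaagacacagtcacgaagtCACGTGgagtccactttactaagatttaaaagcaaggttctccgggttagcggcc

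Ptges (chr3:34586988-34587237, minus strand): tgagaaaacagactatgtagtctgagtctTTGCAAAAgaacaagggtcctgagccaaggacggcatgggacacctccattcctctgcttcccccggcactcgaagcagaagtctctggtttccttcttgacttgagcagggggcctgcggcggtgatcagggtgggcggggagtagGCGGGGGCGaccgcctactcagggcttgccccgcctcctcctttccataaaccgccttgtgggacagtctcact

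Ptgs1 (chr3:39981169-39981418, plus strand): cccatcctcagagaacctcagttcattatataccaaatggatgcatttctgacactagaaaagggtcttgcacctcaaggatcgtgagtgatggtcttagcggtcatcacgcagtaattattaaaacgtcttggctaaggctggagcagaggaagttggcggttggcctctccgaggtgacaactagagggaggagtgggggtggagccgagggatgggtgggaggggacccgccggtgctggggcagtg

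Both strands were searched for 7 motifs, which were chosen after the sequences had been seen. The Ptgs2 window held the E-box CACGTG from 55 to 50 bases before the start, and a C/EBP motif, TTNNGCAA, from 140 to 133 bases before it. The E-box was present in 5.593% and the C/EBP motif in 9.217% of the 33469 rat promoter windows of the same length. The Ptges window held the EGR1 motif GCGGGGGCG from 74 to 66 bases before the start, a motif found in 2.447% of all windows, and a C/EBP motif on the other strand from 221 to 214 bases before it. None of the 7 motifs was in the Ptgs1 window. The others searched were the cyclic AMP response element core TGACG, present in 18.22% of all windows, the NF-kB decamer in 3.541%, the AP-1 motif TGANTCA in 6.34% and the TATA box TATAAA in 12.93%. Among the 8 members with a rat window, the only other matches were in those of Pla2g4a and Ptges3, both on the other strand. In Pla2g4a the letters TATAAA lay reversed, from 108 to 103 bases before the start. In Ptges3 a response element core lay from 6 to 2 bases before it. A match is a description of letters and shows no binding.

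**Figure D1:**
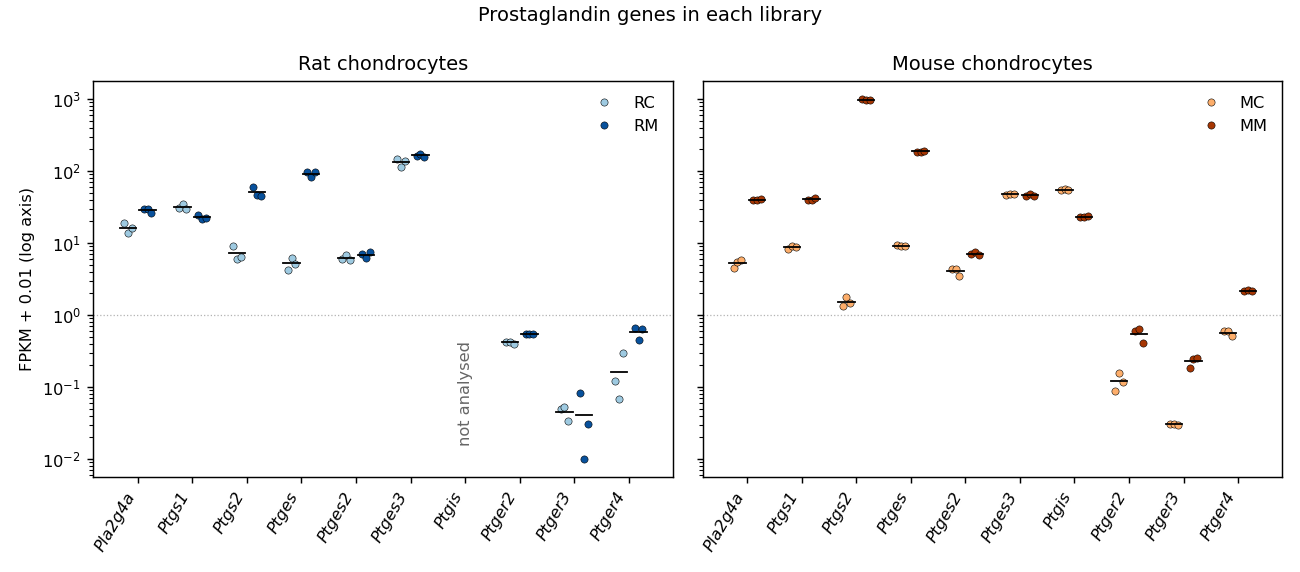
FPKM of each member in each of the 12 libraries, on a log axis after adding 0.01, with rat on the left and mouse on the right, 1 dot per library and a black line at the group mean. The dotted line is at an FPKM of 1. Ptgs2 spans the widest range, from 1.33 in the lowest MC library to 999.7 in the highest MM library, and the 3 receptors lie under the dotted line except Ptger4 in MM.

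Pla2g4a encodes the cytosolic phospholipase A2 that releases arachidonic acid. In mouse it lies on chr1:149829618-149961290 (GRCm38, minus strand), beside Ptgs2 on the same chromosome. In rat its FPKM was 18.9, 13.7 and 15.9 in RC and 29.2, 29.9 and 25.9 in RM. The mouse values were 4.44, 5.49 and 5.72 in MC and 39.2, 39.2 and 40.6 in MM. In both species every model library was above every control library. The log2 fold change was 0.80 in rat (SE 0.11, adjusted P = 0.000379) and 3.20 in mouse (SE 0.05, adjusted P = 3.14e-56), that is 1.74-fold and 9.21-fold.

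Ptgs1 encodes COX-1, the cyclooxygenase usually described as the constitutive form. In mouse it lies on chr2:36230426-36252272 (GRCm38, plus strand). Its rat FPKM was 30.8, 35.0 and 29.99 in RC and 24.4, 21.4 and 22.1 in RM. Its mouse FPKM was 8.24, 8.93 and 8.77 in MC and 40.0, 39.0 and 41.6 in MM. The groups did not overlap in either species, and they were ordered oppositely, with the model libraries lowest in rat and highest in mouse. The log2 fold change was -0.51 in rat (SE 0.09, adjusted P = 0.00105) and 2.49 in mouse (SE 0.05, adjusted P = 5.44e-51). Among the 10912 shared genes tested in both species, 5.18% were called lower in rat and higher in mouse, as Ptgs1 was. In mouse an antisense gene, Gm43621, with 11 counts in MC and 36 in MM, overlaps 3.81% of the exon bases of Ptgs1. Ptgs1 itself held 1744 counts in MC and 8899 in MM. Without the strand of counting, reads in the overlap cannot be told apart.

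Ptgs2 encodes COX-2, the inducible cyclooxygenase and the target of coxib drugs. In mouse it has 11 merged exons on chr1:150100031-150108227 (GRCm38, plus strand). In rat its FPKM was 9.21, 5.99 and 6.42 in RC and 60.1, 47.0 and 45.3 in RM. Mouse Ptgs2 was at 1.33, 1.78 and 1.47 in MC and 999.7, 955 and 977 in MM. All model libraries lay far above the controls, and the MC libraries were the lowest of the 12. The log2 fold change was 2.80 in rat (SE 0.17, adjusted P = 7.99e-07), or 6.96-fold. In mouse it was 9.60 (SE 0.04, adjusted P = 1.04e-84), or 778-fold, where the ratio of the FPKM means was 641. By mean FPKM Ptgs2 ranked 24th of the 28603 genes in MM, where it held 0.448% of all counts, and 10800th in MC. In rat it moved from rank 7226 of 19687 genes in RC to rank 1577 in RM.

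The 2 cyclooxygenases can be set against each other as the Ptgs2 share of their summed FPKM. This share was 23.0%, 14.6% and 17.6% in RC and 71.2%, 68.7% and 67.2% in RM. In mouse it was 13.9%, 16.6% and 14.4% in MC and 96.2%, 96.1% and 95.9% in MM. Ptgs1 was thus the more abundant cyclooxygenase RNA in all 6 control libraries, and Ptgs2 in all 6 model libraries. The mean share was 18.4% ± 4.25 in RC against 69.0% ± 2.01 in RM, and 14.9% ± 1.45 in MC against 96.1% ± 0.121 in MM (SD, n = 3). The summed FPKM was 39.1 ± 2.41 in RC against 73.5 ± 9.51 in RM, and 10.2 ± 0.571 in MC against 1018 ± 22.9 in MM. These shares were not tested, since an exact test of 3 libraries against 3 cannot give a P under 0.1.

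**Figure D2:**
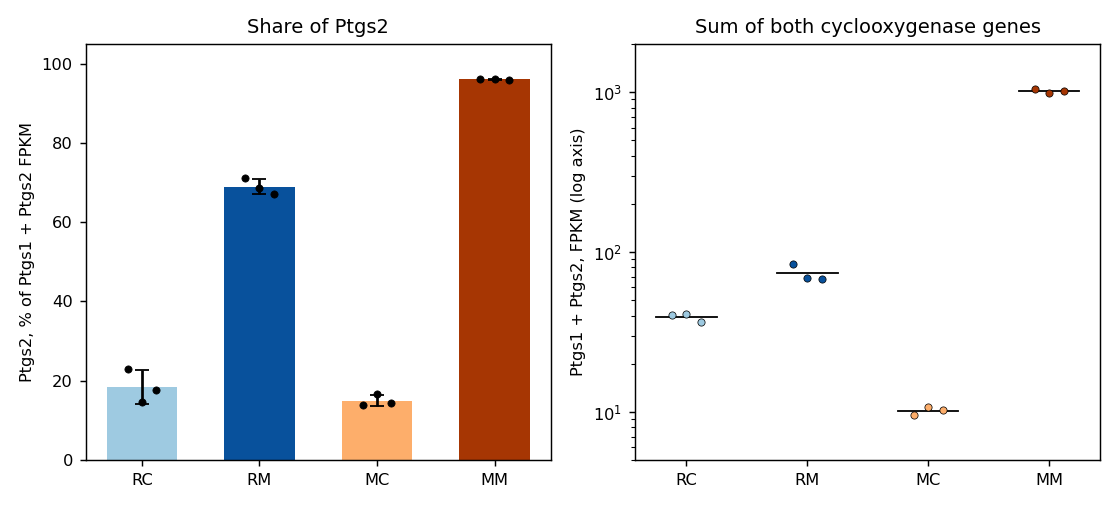
Left, the Ptgs2 share of the summed Ptgs1 and Ptgs2 FPKM in percent, with bars at the group mean, error bars of 1 SD and a dot per library (n = 3). Right, the summed FPKM per library on a log axis with a line at the mean. The share is under 24% in the 6 control libraries, between 67.2% and 71.2% in RM and at 96% in MM, where the sum is also the highest.

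Ptges encodes microsomal prostaglandin E synthase 1, the inducible synthase that works with COX-2. In mouse it lies on chr2:30889471-30929863 (GRCm38, minus strand). Its rat FPKM was 4.16, 6.22 and 5.17 in RC and 96.2, 83.7 and 96.9 in RM. Its mouse FPKM was 9.36, 8.96 and 9.12 in MC and 186, 185 and 189.7 in MM. Model and control libraries were widely separated in both species. The log2 fold change was 4.14 in rat (SE 0.13, adjusted P = 1.01e-08), or 17.6-fold, and 4.63 in mouse (SE 0.04, adjusted P = 3.21e-71), or 24.8-fold. In rat this was the largest log2 fold change among the members, and in mouse it was second to Ptgs2. By mean FPKM Ptges moved from rank 8239 in RC to rank 839 in RM, and stood at rank 172 in MM.

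Ptges2 encodes a membrane-associated prostaglandin E synthase that is expressed in many tissues. In rat its FPKM was 5.92, 6.79 and 5.71 in RC and 6.95, 6.09 and 7.37 in RM. Mouse Ptges2 was at 4.30, 4.28 and 3.51 in MC and 7.08, 7.52 and 6.79 in MM. The rat groups overlapped and the mouse groups did not. The rat change was 0.13 (SE 0.11, 95% interval -0.12 to 0.38, adjusted P = 0.413), and the mouse change was 1.10 (SE 0.07, adjusted P = 2.36e-21).

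Ptges3 encodes the cytosolic prostaglandin E synthase, which is also the HSP90 co-chaperone p23. It was the most abundant member in both rat groups. Its FPKM was 145, 112 and 137 in RC and 164, 173 and 157 in RM. The mouse libraries were at 47.0, 48.5 and 48.2 in MC and 45.1, 48.2 and 45.0 in MM. The rat groups did not overlap and the mouse groups did. The rat change was 0.31 (SE 0.09, adjusted P = 0.0288), and this call was lost when any of 4 libraries was left out (RC replicate 2 or 3, or RM replicate 1 or 2), with an estimate between 0.20 and 0.34. The mouse change was 0.22 (SE 0.04, adjusted P = 1.53e-06) with TMM scaling and -0.06 (adjusted P = 0.205) with scaling to library size alone, so its direction in mouse depended on the scaling. In mouse the scaling by library size moved the median of all genes from -0.02 to -0.29, so small mouse changes are relative to that choice.

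Ptgis encodes the synthase of prostacyclin, a vasodilator that inhibits platelets. In mouse it lies on chr2:167191805-167240604 (GRCm38, minus strand). Its FPKM was 54.0, 56.2 and 53.8 in MC and 22.7, 22.9 and 23.5 in MM. It was the most abundant member in MC, and every MM library was under every MC library. The log2 fold change was -0.97 (SE 0.04, adjusted P = 1.11e-30), and Ptgis was the only mouse member that fell. The antisense gene 1110018N20Rik, with 0 counts in MC and 20 in MM, overlaps 6.08% of the exon bases of Ptgis.

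The 3 EP receptor genes among the members were at or under a mean FPKM of 2.16 in all groups. Ptger2 encodes EP2, a receptor that raises cyclic AMP. Its FPKM was 0.410, 0.418 and 0.387 in RC and 0.531, 0.532 and 0.533 in RM. In mouse it was 0.0787, 0.149 and 0.107 in MC and 0.596, 0.620 and 0.397 in MM. Neither species' groups overlapped. The rat difference was not called at 0.38 (SE 0.27, 95% interval -0.22 to 0.97, adjusted P = 0.305), and the mouse change was 2.54 (SE 0.31, adjusted P = 5.15e-11). That mouse change was 0.47 with limma on log2(FPKM + 1) and 1.59 on log2(FPKM + 0.1). Mouse Ptger2 held 30 counts in MC and 161 in MM. It reached the test mainly through MM, so its call is no support for a direction. In mouse the antisense gene Gm17173, with 20 counts in MC and 38 in MM, overlaps 4.74% of the exon bases of Ptger2, and Gm49364, not analysed here, 2.77%.

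Ptger4 encodes EP4, the other receptor that raises cyclic AMP. In rat its FPKM was 0.109, 0.0585 and 0.289 in RC and 0.640, 0.446 and 0.624 in RM, from 15 and 58 counts in all. Mouse Ptger4 was at 0.598, 0.589 and 0.494 in MC and 2.17, 2.19 and 2.12 in MM. Both species had every model library above every control library. The log2 fold change was 1.89 in rat (SE 0.50, adjusted P = 0.014) and 2.23 in mouse (SE 0.13, adjusted P = 2.63e-24). The rat call was lost without RC replicate 2, at 1.51 (adjusted P = 0.0516), and without RM replicate 1, at 1.81 (adjusted P = 0.0556). Rat Ptger4 reached the test mainly through its RM libraries, so its call is no support for a direction. In mouse the protein-coding gene Ttc33, on the other strand and with 860 counts in MC and 957 in MM, overlaps 1.23% of the exon bases of Ptger4. A processed pseudogene on that strand, Gm15937, overlaps 15.3% and was not analysed here.

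Ptger3 encodes EP3, a receptor that mainly lowers cyclic AMP. The rat libraries held 2, 2 and 1 counts in RC and 3, 0 and 1 in RM, a depth-scaled ratio of 0.782 (0.155 to 3.63, 95% interval from counting error), so no difference was detectable at this depth. In mouse there were 2, 2 and 2 counts in MC and 20, 26 and 24 in MM, equal to mean FPKM of 0.0203 and 0.217. The mouse groups were separate, but the control level rested on 6 counts. The fitted log2 fold change was 3.60 (SE 0.50, adjusted P = 3.13e-09), and it was between 3.54 and 3.75 with any single library left out. It was 0.25 with limma on log2(FPKM + 1) and 1.39 on log2(FPKM + 0.1). The depth-scaled ratio was 12.9 (5.63 to 36.3, 95% interval from counting error). Mouse Ptger3 reached the test through its model libraries alone, so this call is no support for a direction.

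The order of the members by mean FPKM differed between control and model. In RC it ran Ptges3, Ptgs1, Pla2g4a, Ptgs2, Ptges2, Ptges, Ptger2, Ptger4 and Ptger3, and the libraries of Ptgs2, Ptges2 and Ptges overlapped. In RM, Ptges and Ptgs2 followed Ptges3 and came before Pla2g4a and Ptgs1. In MC the order began with Ptgis, Ptges3, Ptges and Ptgs1 and placed Ptgs2 seventh of 10. In MM, Ptgs2 and Ptges came first, followed by Ptges3, Ptgs1 and Pla2g4a, of which Ptgs1 and Pla2g4a overlapped.

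**Figure D3:**
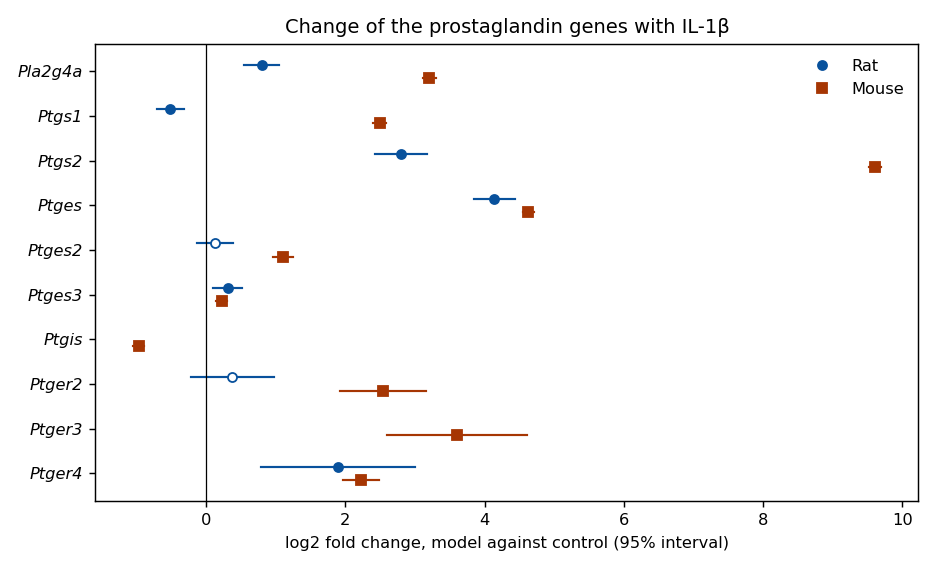
Log2 fold change of model over control for each member with its 95% interval built from the SE, rat as circles and mouse as squares. Filled symbols have an adjusted P under 0.05 and open symbols do not. Rat Ptgs1 lies at -0.51 and mouse Ptgs1 at 2.49, Ptgs2 reaches 9.60 in mouse, and the intervals of rat Ptger4 and mouse Ptger3 are the widest among the filled symbols.

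Criteria after those of the study for DEGs were also applied. They required a change of 0.85 or more, read here on the log2 scale since the methods do not name one, with P below 0.05 before adjustment, and 1 library or more reaching an FPKM of 1. Under these criteria 8.54% of the rat genes passed, 4.64% as higher in RM and 3.9% as lower. The rat members that passed were Ptgs2 and Ptges, both higher. In mouse 25.6% of the genes passed, 12.6% as higher in MM and 13% as lower. There 6 members passed as higher, namely Pla2g4a, Ptgs1, Ptgs2, Ptges, Ptges2 and Ptger4, and Ptgis passed as lower. Rat Pla2g4a, at 0.80, was just under the limit on the fold change.

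Whether the response differed between the species was tested as the log2 fold change in mouse minus that in rat, in 1 fit of all 4 groups over the 10912 shared genes tested in both. In this fit 63.8% of the genes were called, 31.4% with a higher change in mouse and 32.3% with a higher change in rat. Of the 8 members in the fit, 6 had a higher change in mouse and none was called higher in rat. The largest difference was that of Ptgs2, at 6.81 (SE 0.21, adjusted P = 5.49e-14). Ptgs1 differed by 3.01 (SE 0.10, adjusted P = 1.08e-13), the fall in rat against the rise in mouse. Pla2g4a differed by 2.41 (SE 0.14, adjusted P = 2.19e-10). The receptor Ptger2 differed by 2.17 (adjusted P = 0.000177), and Ptges2 by 0.97 (adjusted P = 1.64e-05). Mouse Ptger2 reached the test mainly through its model libraries, so its difference is no support for a direction.

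Ptges, which rose strongly in both species, differed by 0.49 (SE 0.13, adjusted P = 0.0032). That call depended on the scaling: with library size alone the difference was 0.20 (adjusted P = 0.189). No difference was called for Ptger4, at 0.33 (95% interval -0.75 to 1.42, adjusted P = 0.587), or for Ptges3, at -0.09 (95% interval -0.31 to 0.14, adjusted P = 0.5). The interval of Ptger4 is wide enough to hold a difference of more than 1 log2 unit. For Ptges3, scaling by library size gave -0.38 (adjusted P = 0.00473), a call in favour of rat.

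The other genes of prostanoid metabolism were read from lists of selected genes, which do not cover whole families. Counts of calls in these lists stand beside the shares over all genes tested. In rat these were 18.3% higher and 16.8% lower, and in mouse 37.4% and 37.7%. Of the other phospholipases A2, 1 of 6 tested rose and 1 fell in rat, and 3 of 4 rose and 1 fell in mouse. Pla2g2a, a secreted phospholipase known as an inflammatory marker, went in rat from 3.27 ± 0.419 to 292 ± 12.2 FPKM (SD, n = 3), a log2 fold change of 6.47 (edgeR adjusted P = 6.59e-11), and was not analysed in mouse. Pla2g12a, another secreted form, was at -0.18 in rat (adjusted P = 0.53) and rose by 1.82 in mouse (adjusted P = 1.56e-37). Pla2g15, the lysosomal form, was at -0.07 in rat (adjusted P = 0.616) and rose by 0.54 in mouse. Pla2g6, the calcium-independent form, fell in rat, at -0.35 (adjusted P = 0.011), and in mouse was at 0.21 (adjusted P = 0.035) or, with library size alone, at -0.07. Both Pla2g6 calls were weak: the rat call was lost without RM replicate 1 or 2, and the mouse call in DESeq2, in limma and with any 1 of 4 libraries left out (MC replicate 1 or 2, or MM replicate 1 or 3). The mouse gene that fell was Pla2g5, named after its value was seen, which went from 107 to 12 counts and passed the filter on low counts through its MC libraries alone.

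Of the other prostanoid synthases, none of 3 tested rose and 1 fell in rat, and 1 of 3 rose and 1 fell in mouse. The rat call was Ptgds, the lipocalin-type prostaglandin D synthase, which went from 25.3 to 11.5 FPKM (log2 fold change -1.16, adjusted P = 0.000148). Akr1b3, named Akr1b1 in rat, encodes an aldose reductase that can make prostaglandin F2α. It was at -0.02 in rat (adjusted P = 0.914) and rose by 1.95 in mouse (adjusted P = 2.72e-42). Fam213b, whose product can also make prostaglandin F2α, was at -0.26 in rat (adjusted P = 0.5) and at -0.83 in mouse (adjusted P = 3.2e-15).

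Of the other prostanoid receptors, 1 of 3 tested rose and 1 fell in rat, and 2 of 3 rose and 1 fell in mouse. Ptgfr, the receptor of prostaglandin F2α, rose by 4.02 in mouse (adjusted P = 1.59e-46), from 0.609 to 8.17 FPKM, and was at 0.30 in rat (adjusted P = 0.31). Ptgir, the prostacyclin receptor, rose by 2.54 in rat (adjusted P = 0.000739) and by 1.32 in mouse (adjusted P = 6.39e-11). Ptger1, which encodes EP1, fell in rat from 10.7 to 7.15 FPKM (-0.60, adjusted P = 0.00269) and was the most abundant EP receptor RNA there. Tbxa2r, the thromboxane receptor, was called lower in mouse, from 1.99 to 0.0628 FPKM or from 197 to 7 counts. It passed the filter on low counts through its MC libraries alone, as rat Ptgir did mainly through RM, with 24 counts in RC and 143 in RM, so these calls are no support for a direction.

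Of the 5 genes of prostaglandin breakdown and transport, all tested, 2 rose and 2 fell in rat, and 3 rose and 1 fell in mouse. Hpgd, Ptgr1 and Abcc4 were called in opposite directions in rat and mouse, Slco2a1 was higher in both model groups, and Ptgr2 was called in neither. Opposite calls were made for 12.5% of the 10912 shared genes tested. Hpgd encodes the enzyme that inactivates prostaglandin E2. It rose in rat from 2.07 to 4.25 FPKM (1.03, adjusted P = 0.00263) and fell in mouse from 18.0 to 0.425 FPKM (-5.10, adjusted P = 9.4e-38). Ptgr1, a reductase that acts on the products of Hpgd, had the opposite pair of changes, at -0.50 in rat (adjusted P = 0.00242) and 2.34 in mouse (adjusted P = 2.73e-48). Abcc4, an exporter of prostaglandin E2, was at -1.07 in rat (adjusted P = 1.69e-05) and 1.53 in mouse (adjusted P = 7.04e-37). Slco2a1, the prostaglandin importer, rose in both, by 0.40 in rat (adjusted P = 0.0131) and 1.22 in mouse (adjusted P = 2.64e-38), and its rat call was lost without RM replicate 2 (adjusted P = 0.0557). The difference between the species was called for each of these 4, at -6.14 for Hpgd, 2.84 for Ptgr1, 2.61 for Abcc4 and 0.81 for Slco2a1.

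Genes known to respond to cyclic AMP, the second messenger of EP2 and EP4, were examined as a list of 7. In rat 2 rose, 1 fell and 4 were not called, with a median log2 fold change of 0.04. In mouse all 7 rose, with a median of 3.22. Over all genes tested, 18.3% rose and 16.8% fell in rat, and 37.4% rose in mouse. The nuclear receptor Nr4a2 was at 0.04 in rat (adjusted P = 0.852) and rose by 4.64 in mouse (adjusted P = 1.73e-58), from 1.83 to 37.5 FPKM. Its relative Nr4a1 was at -0.26 in rat (adjusted P = 0.253) and rose by 3.22 in mouse. The transcriptional modulator Crem rose in both, by 0.47 in rat (adjusted P = 0.00677) and 3.27 in mouse. The kinase gene Sik1 rose by 2.75 in mouse. In rat it was at -0.28 (adjusted P = 0.0456), just past the threshold, and this call was lost with library size alone, with no filter on low counts, in DESeq2, in limma and with any 1 of 5 libraries left out (RC replicate 2 or 3, or any RM library), with adjusted P up to 0.165. The other gene that rose in rat was the phosphodiesterase Pde4b, at 1.41, named after its value was seen. These genes respond to other signals too.

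**Figure D4:**
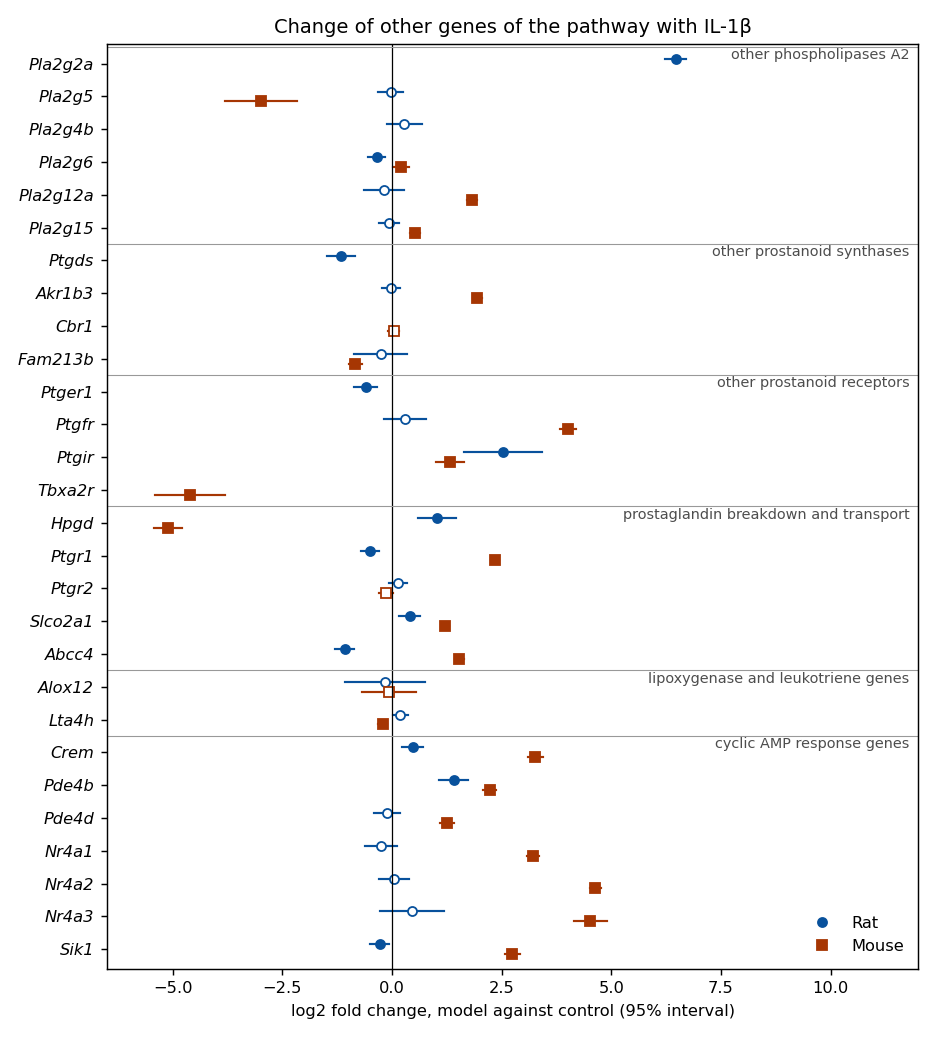
Log2 fold change of model over control for the tested genes of the other lists, rat as circles and mouse as squares. Bars are 95% intervals built from the SE, and symbols are filled where the adjusted P is under 0.05. Hpgd lies at 1.03 in rat and -5.10 in mouse, Ptgr1 and Abcc4 on the opposite sides, and Nr4a2 near 0 in rat and at 4.64 in mouse.

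As a description of likeness, the Pearson correlation of log2(FPKM + 1) over the 12 libraries was computed between each of Ptgs2, Ptges and Ptgs1 and the 10912 shared genes tested in both species. The libraries fall into 4 groups, so these values mostly reflect the group means. For Ptgs2 the closest were Slit2 (r = 0.998), Inhba (0.993) and Shb (0.992). Those of Ptges were the complement gene C3 (0.998), Angptl4 (0.997) and Tgm1 (0.994). Ptgs1 was closest to Arg2 (0.997), Slco3a1 (0.991) and Slc22a23 (0.991). No such value was computed for Ptgis, which was not analysed in rat.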

How the data were processed

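RNA-seq was measured in 12 libraries, and groups were taken from the labels. Per the submitters' processing notes, HISAT2, HTSeq 0.11.2 and the builds GRCm38 and Rnor_6.0 were used; their roles, the annotation and the strand setting were not stated in the sources read, so reads shared with overlapping or near-identical genes are uncertain. For each species the authors deposited raw counts per Ensembl gene and, from the same counts, FPKM. With a length per gene inferred from the same counts and FPKM, the deposited FPKM matched the counts within 0.1% for 100% of the values with at least 20 counts. The match shows that each gene had a constant length over the libraries and is no independent check of that length.

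Counts were analysed with edgeR 4.0.16 in R 4.3.3, with filterByExpr (minimum count 10), TMM scaling, quasi-likelihood fits per species and Benjamini-Hochberg adjustment over the 13303 rat and 14774 mouse genes tested. The difference between the species was fitted over genes shared by symbol, with scaling within each species. P values set each change against the spread between these samples. That spread, as the fitted coefficient of variation, was 0.106 in rat and 0.0318 in mouse, so mouse SE and P values are smaller at a like change. The test of the species difference used a shared spread estimate for all groups. How far the spread is between animals is not known, since their number is not given. Counting intervals are exact, at 95%, and cover counting error only. On simulated data with 200 genes changed by 1.5 on the log2 scale, the test recovered 99.5% of those in rat and 100% in mouse. Of its calls there, 2.93% in rat and 4.31% in mouse were false. Genes of few counts were not among those changed, directions were drawn at random and all genes had a common spread. The simulation therefore does not cover members of few counts or the choice of scaling.

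Alternatives were scaling by library size or RLE, no filter on low counts, DESeq2 1.42.0, limma 3.58.1 on log2(FPKM + 1) and log2(FPKM + 0.1), a replicate block and leaving out each library. The members and the gene lists were chosen with earlier results of these data known. Every member was named, and of each other list at most 4 called genes, by smallest adjusted P, that reached an FPKM of 1 as a group mean. Mouse positions come from GENCODE M21 (GRCm38) and rat promoters, for 8 of the 10 members, from RefSeq (GRCr8). Figures were drawn with matplotlib 3.10.9.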

Additional observations from a re-analysis of the deposited data

Results flagged for a closer look

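The following genes, of those named by the rule given above, were singled out because their change under IL-1β differed between mouse and rat. The call in the test of that difference (edgeR, adjusted P under 0.05) was made for 63.8% of the shared genes tested. Values are the log2 fold change in mouse minus that in rat, and no cause was tested. Among the members they were 6.81 for Ptgs2, 3.01 for Ptgs1, 2.41 for Pla2g4a, 2.17 for Ptger2, 0.97 for Ptges2 and 0.49 for Ptges. Among the phospholipases they were 2.01 for Pla2g12a, 0.61 for Pla2g15 and 0.56 for Pla2g6. Pla2g5, outside the naming rule, was called the other way, at -2.96. In mouse it passed the filter on low counts through its MC libraries alone, which is no support for a direction. The synthase Fam213b was at -0.59, and the receptors Ptgfr and Ptgir at 3.72 and -1.20. The Fam213b call (adjusted P = 0.0456) was lost with no filter on low counts (adjusted P = 0.0509) and with any 1 of 9 libraries left out, all but RC replicate 3, RM replicate 1 and MC replicate 3, and without RM replicate 3 the difference was -0.34. The Ptgir call was lost without RC replicate 3, at -0.87 (adjusted P = 0.0692), and with limma on log2(FPKM + 1), at 0.079 (adjusted P = 0.551). Without RC replicate 2 the Ptgir difference was -1.86. That of Pla2g6 was lost with library size alone, at 0.26 (adjusted P = 0.0643), and with limma on log2(FPKM + 0.1), at 0.26 (adjusted P = 0.0666). That of Ptges was lost with library size alone (adjusted P = 0.189). It was also lost with limma on log2(FPKM + 1) (adjusted P = 0.0656) and on log2(FPKM + 0.1) (adjusted P = 0.253). Mouse Ptger2 and rat Ptgir reached the test mainly through their model libraries, so their differences are no support for a direction. Of the genes of breakdown and transport, Hpgd was at -6.14, Ptgr1 at 2.84, Abcc4 at 2.61 and Slco2a1 at 0.81. The cyclic AMP response genes were at 4.59 for Nr4a2, 3.47 for Nr4a1, 3.03 for Sik1 and 2.80 for Crem. Outside the naming rule, Nr4a3, Pde4d and Pde4b were also called, at 4.05, 1.36 and 0.82. The leukotriene gene Lta4h was at -0.40. With 3 libraries a group, no library was tested as an outlier.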

How the results depend on the processing

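Leaving out 1 library at a time, the rat members called higher numbered from 3 to 5, against 5. The mouse members called stayed at 10 and those called for the species difference at 6. Rat genes called in all numbered from 3303 to 6251, against 4667. In mouse, limma on log2(FPKM + 1) and on log2(FPKM + 0.1) called 3639 and 3635 genes higher, against 5521. For the species difference, scaling by library size, limma with + 1 and limma with + 0.1 each called 1 member higher in rat (Ptges3), against 0. In the same order they called 2191, 2214 and 2167 genes higher in mouse, against 3429, and 5395, 5326 and 5351 higher in rat, against 3530. These alternatives lack the TMM factors, which were 1.10 in MC and 0.91 in MM, and the deposited FPKM carry none. From counts in place of FPKM, the Ptgs2 share was 26.0% in RC, 77.6% in RM, 17.2% in MC and 96.6% in MM. Directions that turned were all of small changes, apart from the species differences of Ptger4 and Ptgir. In rat, Akr1b3 (named Akr1b1 there) went from -0.02 to 0.0011 with both limma settings and lay between -0.11 and 0.043 with a library left out, and Nr4a2 lay between -0.073 and 0.11. In mouse, Ptges3 was at -0.055, -0.055 and -0.056 and Pla2g6 at -0.071, -0.050 and -0.065 under library size and the limma settings. Of the species differences, that of Ptgir was 0.079 with limma and + 1, that of Ptges3 lay between -0.15 and 0.022 and that of Ptger4 between -0.44 and 0.71 with a library left out. Outside leave-one-out, no member's call within a species was lost, except that of mouse Ptges3 with library size and both limma settings. For the difference, Ptges lost its call under library size and both limma settings, and Ptger4 gained one under limma with + 1. With a replicate block the members called were again 6 in rat, 10 in mouse and 6 for the difference, and 4534 rat genes were called. The rat call of Sik1 was lost there (adjusted P = 0.08), as under most other alternatives. Same-numbered rat libraries deviated together with correlations of 0.02, -0.10 and 0.08, so the numbers were not taken to pair the samples. Depth limits the receptors most: rat Ptger3 and Ptger4 and mouse Ptger3 rest on a few counts. With limma on log2(FPKM + 1) the called receptor changes were smaller. They were 0.45 for rat Ptger4, and 1.02, 0.47 and 0.25 for mouse Ptger4, Ptger2 and Ptger3.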

Other observations

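Of the 9 lipoxygenase and leukotriene genes, which include receptors as well as enzymes, only 2 had enough counts to be tested in either species. Lta4h, the leukotriene A4 hydrolase, was at 0.19 in rat (edgeR adjusted P = 0.0842) and fell in mouse, at -0.21 (adjusted P = 0.000133). Summed over the list, the FPKM was between 38.4 and 43.5 in RC and between 44.4 and 49.6 in RM, and between 12.3 and 13.9 in MC and between 9.05 and 9.86 in MM.

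In the mouse table the antisense genes Ptgs2os and Ptgs2os2, named here after their values were seen, went from 9 to 738 and from 4 to 1186 counts over the 3 libraries of a group. In the annotation neither shares exon bases with Ptgs2. The pseudogene Ptges3-ps held 53 counts in MC and 34 in MM.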
